A study of Heterocephalus glaber with 2 samples.

Results

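The genes described here are 9 markers of lymphocytes measured by RNA sequencing in dorsal skin, taken in its full thickness, of naked mole-rats (Heterocephalus glaber), and were chosen by symbol. They are CD79A, CD79B and MS4A1 of B cells, JCHAIN, MZB1 and POU2AF1 of plasma cells, and CD3D, CD3E and CD3G of T cells. Each matched 1 locus among the 24514 loci of the deposited tables. Skin was taken at an old age of 19 years and a young age of 4 years, with 2 tables for each age. Each table was taken as 1 library and is called old 1, old 2, young 1 or young 2 after the Sample number in its header. The labels name no strain, sex, social status or treatment, and they do not say whether the tables of an age came from different animals. The p-values below thus reflect no more than how far these libraries differ, and that may be technical.

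B cells carry surface immunoglobulin that signals through the paired proteins CD79A and CD79B, and MS4A1 (CD20) sits beside it in the membrane. When B cells become plasma cells they turn into factories of secreted antibody, with MZB1 helping immunoglobulin assembly in the endoplasmic reticulum, JCHAIN joining IgA and IgM into polymers and POU2AF1 acting as a coactivator of octamer-binding factors. T cells sense antigen through a receptor that is expressed at the surface only together with the CD3 chains delta, epsilon and gamma. In mammalian skin, T cells are the usual lymphocytes, and B cells and plasma cells are sparse.

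Values are FPKM, fragments per kilobase of locus scaled to the size of the library, so levels can be set side by side between genes. How many reads lie behind a value is unknown, and a floor of 0.0001 FPKM stands in the tables for loci with no estimate. Between 16127 and 18441 loci per library lay above that floor. The libraries split by Sample number: small structural RNAs held 51.4% of the summed FPKM in old 1 and 47.0% in young 1, against 0.773% in old 2 and 0.593% in young 2. Over the 12753 loci whose mean reached 1 FPKM, log2(FPKM + 1) values correlated at 0.948 between old 1 and young 1 and at 0.927 between old 2 and young 2, but at 0.701 between the old libraries and 0.712 between the young ones. Old 1 was therefore also set against young 1, and old 2 against young 2; each is 1 library against 1 and allows no test. Of the defining genes of the labelled tissue, KRT10, a keratin of the upper epidermis, stood between 1285 and 3823 FPKM in every library.

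**Figure D1:**
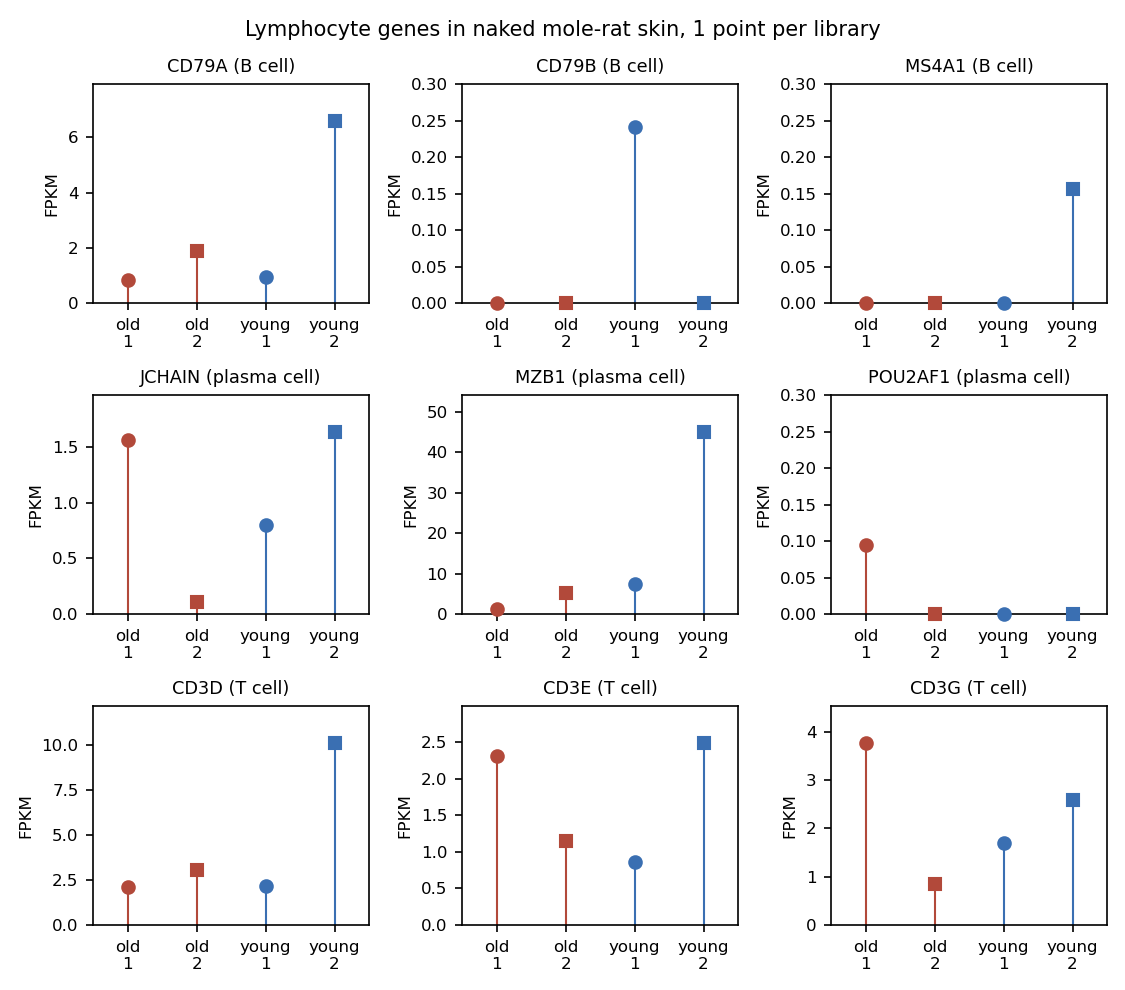
FPKM of the 9 lymphocyte genes in each of the 4 libraries, old libraries (red) left of young (blue), circles for Sample number 1 and squares for number 2, each panel on its own linear axis from 0. MZB1 is lower in both old libraries, at 1.18 and 5.11 FPKM, than in both young ones, at 7.50 and 45.0 FPKM, and CD79B, MS4A1 and POU2AF1 each lie above the floor in 1 library.

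MZB1 was the member whose ages did not overlap. It stood at 1.18 FPKM in old 1 and 5.11 FPKM in old 2, against 7.50 FPKM in young 1 and 45.0 FPKM in young 2. Both old libraries lay below both young ones, which held for 1 of the 6 members whose mean reached 1 FPKM and for 6.46% of all loci tested. The reverse, both old libraries above both young ones, held for 0 of 6 members and 7.3% of loci. Old 1 held 6.37-fold less MZB1 than young 1, and old 2 held 8.80-fold less than young 2. On the log2(FPKM + 1) scale used for all tests, which understates the change of low genes, the ratios were -1.97 and -2.91. In each number 0.235% of the tested loci had a lower ratio than MZB1. The level also differed between the numbers at the same age, and young 2 stood highest. In tissue RNA, fewer cells of a type and less RNA per cell cannot be told apart.

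The age difference of MZB1 did not pass the test over all genes. With limma on log2(FPKM + 1), age as the single term and Benjamini-Hochberg adjustment over 12753 loci, it was -2.44 ± 0.98 (SE), with unadjusted p = 0.05005 and adjusted p = 1. That fit called 0 loci lower and 0 higher in old skin (0% of those tested each). On simulated data, with mean levels and changes set above those of the tested members, this fit called none of the changes put in. The count of 0 thus does not show that no gene differed. At unadjusted p under 0.05 the fit had 53 lower (0.416%) and 25 higher (0.196%). Among the 6 tested members 0 were under 0.05 unadjusted. With the number as a term in the fit, 2 loci were lower (0.0157%) and 1 was higher (0.00784%), 0 of them members, and MZB1 had adjusted p = 0.0786. Without young 1, limma called MZB1 lower (log2 difference -3.66, adjusted p = 0.0493), a fit in which young 2 alone stands for the young age. Without young 2 the difference was -1.22 (adjusted p = 1). An exact permutation test of 2 libraries against 2 cannot go below p = 0.33.

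JCHAIN, the other secretory member with a measurable level, did not share this pattern. It stood at 1.57 FPKM in old 1 and 0.105 FPKM in old 2, against 0.802 FPKM in young 1 and 1.64 FPKM in young 2. Old 1 lay close to the highest library and old 2 was the lowest, so the ages overlapped. JCHAIN was 1.96-fold the young level in old 1 and 15.6-fold lower in old 2, with a limma log2 difference of -0.37 ± 0.67 (SE) and adjusted p = 1. As a result the ratio of MZB1 to JCHAIN ranged widely, at 0.751 in old 1 and 48.8 in old 2, against 9.36 in young 1 and 27.5 in young 2. The 15.6-fold and the 48.8 both rest on the low value of old 2, 0.105 FPKM, so their size is uncertain. In number 2 the log2 ratio of JCHAIN was -1.25 with 1 FPKM added to each value and -3.08 with 0.1 FPKM added. POU2AF1 was listed at 0.0944 FPKM in old 1 and at the floor in old 2, young 1 and young 2. With a mean of 0.0237 FPKM it was not tested, and no fold is given. Neither JCHAIN nor POU2AF1 shared the age pattern of MZB1, so the plasma cell label of that pattern rests on MZB1.

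Of the B cell members, CD79A was the measurable gene. It stood at 0.830 FPKM in old 1 and 1.87 FPKM in old 2, against 0.953 FPKM in young 1 and 6.59 FPKM in young 2. Young 2 was high, the other 3 libraries did not exceed 1.87 FPKM, and the ages overlapped. Old 1 was 1.15-fold below young 1 and old 2 was 3.53-fold below young 2, with a limma log2 difference of -0.75 ± 0.80 (SE) and adjusted p = 1. Without young 2 that difference was 0.23, so its direction rests on that library.

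CD79B and MS4A1 were barely detected. CD79B was listed at 0.242 FPKM in young 1 and at the floor in old 1, old 2 and young 2, and MS4A1 at 0.157 FPKM in young 2 and at the floor in old 1, old 2 and young 1. CD79A and CD79B work as a pair, yet CD79B was below CD79A in all 4 libraries. The depth is unknown, so how much RNA a floor value allows cannot be given. The B cell label thus rests mainly on CD79A. PAX5, the factor that fixes B cell identity, was listed at the floor in old 1, young 1 and young 2 and at 0.0313 FPKM in old 2.

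The CD3 chains were above the floor in every library, and the age ratios of CD3E and CD3G turned opposite ways in the numbers. CD3E stood at 2.31 FPKM in old 1 and 1.16 FPKM in old 2, against 0.857 FPKM in young 1 and 2.49 FPKM in young 2. CD3G stood at 3.77 FPKM in old 1 and 0.858 FPKM in old 2, against 1.69 FPKM in young 1 and 2.59 FPKM in young 2. CD3D stood at 2.12 FPKM in old 1 and 3.07 FPKM in old 2, against 2.15 FPKM in young 1 and 10.1 FPKM in young 2. For CD3E and CD3G the old library was the higher of number 1 and the lower of number 2, while for CD3D the libraries of number 1 were almost equal and young 2 stood apart.

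In number 1, CD3E was 2.70-fold and CD3G 2.23-fold the young level in old skin. In number 2, old skin was lower, by 2.16-fold for CD3E, 3.01-fold for CD3G and 3.29-fold for CD3D. The limma log2 differences were 0.07 ± 0.61 (SE) for CD3E, -0.06 ± 0.65 (SE) for CD3G and -0.73 ± 0.73 (SE) for CD3D, each with adjusted p = 1. A test of whether the numbers differ in their age ratio could not be made, since 4 libraries leave no residual degrees of freedom for it.

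**Figure D2:**
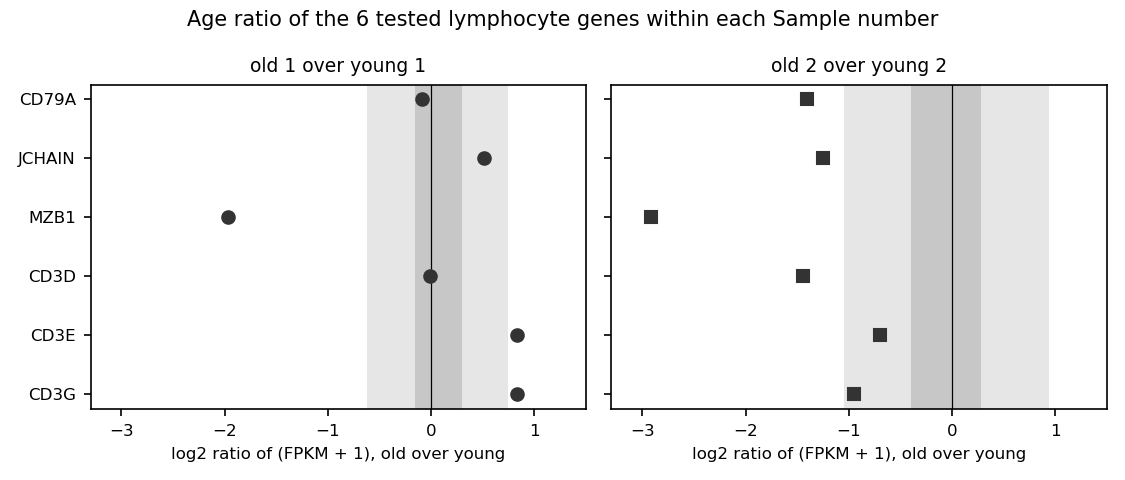
Log2 ratio of (FPKM + 1), old over young, for the 6 tested members within Sample number 1 (left) and number 2 (right). Dark grey spans the middle 50% and light grey the middle 90% of the 12753 tested loci. MZB1 lies far to the left in both numbers, and CD3E and CD3G lie to the right in number 1, both at 0.83, and to the left in number 2, at -0.70 and -0.95.

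The summed level of the 3 CD3 chains was 8.20 FPKM in old 1 and 5.08 FPKM in old 2, against 4.69 FPKM in young 1 and 15.2 FPKM in young 2. The chains did not keep a fixed proportion. CD3D, which pairs with CD3E in the receptor as CD3G does, made up 25.8% of the sum in old 1 and 60.4% in old 2, against 45.8% in young 1 and 66.5% in young 2. It held the larger share in both libraries of number 2. CD3D and CD3G are close neighbours in mammalian genomes, and whether the counting used strand is not given in the sources used here. Whether reads were shared between them was not tested.

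Of the other parts of the T cell receptor, TRDC, the constant region of the receptor delta chain of gamma-delta T cells, stood at 2.86 FPKM in old 1 and 0.327 FPKM in old 2, against 1.37 FPKM in young 1 and 1.86 FPKM in young 2. Like CD3E and CD3G, it was higher in the old library of number 1 and lower in that of number 2. CD247, the zeta chain that carries most of the receptor's signalling motifs, was listed at 1.37 FPKM in old 1 and at the floor in old 2, young 1 and young 2. The alpha, beta and gamma constant regions, on the same list, were not found by symbol. Values for the immunoglobulin heavy chains were not used here. Markers of fat moved the same way as CD3E, CD3G and TRDC. Of the 6 adipocyte genes tested, 5 were higher in old skin in number 1 and lower in number 2, against 31.5% of all loci. The median log2 ratios of the 6 were 0.64 and -1.44. Their summed level was 721 FPKM in old 1 and 142 FPKM in old 2, against 450 FPKM in young 1 and 259 FPKM in young 2. None of the 6 was at the floor in any library, and the part of fat content in the T cell result was not tested.

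Set beside each other, the tested members showed 2 patterns. MZB1, CD79A and CD3D had lower values at the old age in both numbers, 3 of 6, where 23.1% of all loci had. For CD3D the ratio in number 1 was -0.01. CD3E, CD3G and JCHAIN were higher in old skin in number 1 and lower in number 2, 3 of 6, against 31.5% of loci, and 0 of 6 were higher in both, against 26.7%. The remaining pattern, lower in number 1 and higher in number 2, held for 0 of 6 and 17.6% of loci. At least a 2-fold lower value on the log2(FPKM + 1) scale was found in number 1 for 1 of 6, MZB1, against 1.83% of loci, and a 2-fold higher one for 0 of 6, against 2.36%. In number 2 it was found for 4 of 6, MZB1, CD3D, CD79A and JCHAIN, against 5.55%, and a 2-fold higher one for 0 of 6, against 4.33%. In both numbers it was found for 1 of 6, MZB1, against 0.557%. The median log2 ratio of the 6 was 0.25 in number 1 and -1.33 in number 2, beside 0.07 and -0.06 over all loci tested. The filter uses the mean of the 4 libraries, which a gene high in a single library can pass, so these counts describe the 6 genes that passed and support nothing further.

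The order of the members by level also changed between libraries. In old 1 CD3G was highest, at 3.77 FPKM, and MZB1 ranked below CD3G, CD3E, CD3D and JCHAIN. In old 2, young 1 and young 2 MZB1 ranked first and CD3D second. MZB1 alone held 9.92% of the summed level of the 9 genes in old 1 and 42.0% in old 2, against 52.9% in young 1 and 65.7% in young 2. By mean over the 4 libraries the order was MZB1, CD3D, CD79A, CD3G, CD3E and JCHAIN, at 14.7, 4.36, 2.56, 2.23, 1.70 and 1.03 FPKM, and the ranges of every pair of neighbours in it overlapped. CD79B, MS4A1 and POU2AF1 followed at means of 0.0606, 0.0393 and 0.0237 FPKM.

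Levels were also set against those of leukocytes at large. PTPRC (CD45), the surface phosphatase of nearly all leukocytes, stood at 5.91 FPKM in old 1 and 2.20 FPKM in old 2, against 6.43 FPKM in young 1 and 3.82 FPKM in young 2. Per unit of PTPRC, MZB1 stood at 0.199 in old 1 and 2.33 in old 2, against 1.17 in young 1 and 11.8 in young 2. It remained lower in old skin within both numbers, but the ages now overlapped, since old 2 lay above young 1. CD79A per PTPRC was 0.140 in old 1 and 0.850 in old 2, against 0.148 in young 1 and 1.72 in young 2. The CD3 sum per PTPRC was 1.39 in old 1 and 2.31 in old 2, against 0.730 in young 1 and 3.97 in young 2, and kept its opposite directions.

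**Figure D3:**
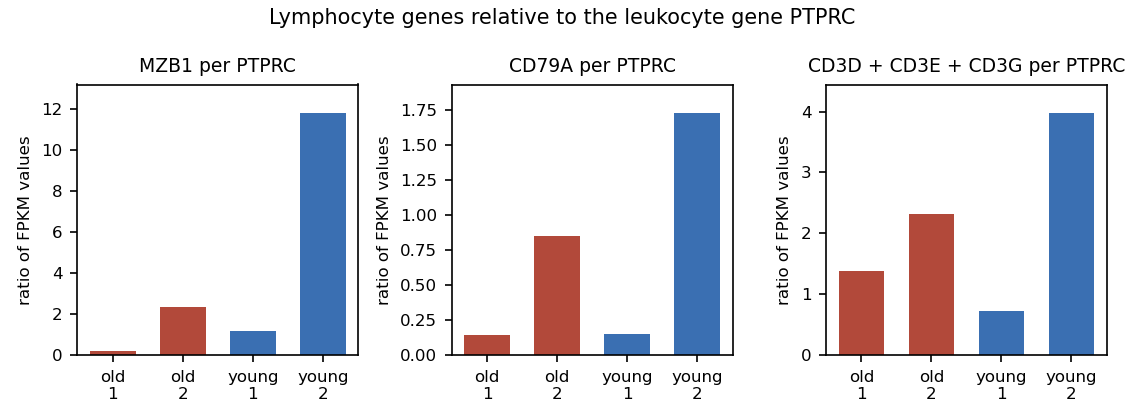
FPKM of MZB1, of CD79A and of the summed CD3D, CD3E and CD3G, each divided by the FPKM of PTPRC in the same library, with old libraries (red) left of young (blue). Within each Sample number MZB1 per PTPRC is lower in the old library, 0.199 against 1.17 and 2.33 against 11.8, while the CD3 sum per PTPRC is higher in old 1 and lower in old 2.

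The list of 15 genes shared by leukocytes gave a like picture. All 13 found passed the filter, with a median log2 ratio of -0.22 in number 1, -0.31 in number 2. Of the 13, 7 were lower and 1 was higher in old skin in both numbers, beside 23.1% and 26.7% of all loci. The 13 genes summed to 136 FPKM in old 1 and 277 FPKM in old 2, against 134 FPKM in young 1 and 379 FPKM in young 2. MZB1 corresponded to 0.865% of that sum in old 1 and 1.84% in old 2, against 5.61% in young 1 and 11.9% in young 2. The CD3 sum corresponded to 6.02% in old 1 and 1.83% in old 2, against 3.51% in young 1 and 4.00% in young 2.

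Other plasma cell genes had mixed directions. Of 8 tested besides JCHAIN and MZB1, 2 were lower at the old age in both numbers and 3 higher, beside 23.1% and 26.7% of all loci, with a median log2 ratio of -0.01 in number 1, 0.43 in number 2. FKBP11, a folding enzyme of secretory cells, stood at 12.5 FPKM in old 1 and 28.3 FPKM in old 2, against 15.3 FPKM in young 1 and 58.0 FPKM in young 2, and TXNDC5, in a joined locus, was the other gene lower in both. DERL3, of endoplasmic reticulum protein disposal, stood at 1.82 FPKM in old 1 and 4.33 FPKM in old 2, against 0.964 FPKM in young 1 and 1.70 FPKM in young 2. TNFRSF17 (BCMA), the survival receptor of plasma cells, was listed at 0.760 FPKM in old 1 and at the floor in old 2, against 0.276 FPKM in young 1 and the floor in young 2. It was thus highest where MZB1 was lowest, in old 1, and at the floor where MZB1 was highest, in young 2. XBP1, PRDM1 and FKBP11 are also expressed by other cells of the skin, so this list is not specific to plasma cells.

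B cell genes besides the members were low or shared with other cells. Of 13 transcription factors and signalling genes, all found, 7 were tested, with medians of -0.09 and -0.24. In both numbers 2 were lower and 1 higher in old skin, beside 23.1% and 26.7% of all loci. BLNK, the adaptor below the B cell receptor, stood at 5.08 FPKM in old 1 and 4.46 FPKM in old 2, against 4.31 FPKM in young 1 and 5.46 FPKM in young 2. EBF1, which also marks stromal and fat precursor cells, was the gene higher in both, at 19.0 FPKM in old 1 and 3.60 FPKM in old 2, against 11.97 FPKM in young 1 and 2.87 FPKM in young 2. The receptor CR2 and the surface protein FCRL1 were at the floor in all 4 libraries.

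T cell genes besides the receptor did not share 1 direction. Of 7 signalling genes and transcription factors tested, 1 was lower and 1 higher in old skin in both numbers, with medians of -0.07 and 0.40. RUNX3, a transcription factor of cytotoxic T cells, was the lower one, at 2.13 FPKM in old 1 and 1.56 FPKM in old 2, against 2.58 FPKM in young 1 and 3.49 FPKM in young 2. Of 4 surface genes tested, 3 were lower in both numbers (CD4, IL7R and THY1) and 1 higher (IL2RB), beside 23.1% and 26.7% of all loci. IL7R, the interleukin-7 receptor that keeps T cells alive, stood at 2.14 FPKM in old 1 and 0.834 FPKM in old 2, against 3.27 FPKM in young 1 and 1.76 FPKM in young 2. The loci of CD4 and LAT are joined with GPR162 and SPNS1 in the tables, so their values cannot be given to 1 gene, and THY1 is also expressed by fibroblasts.

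**Figure D4:**
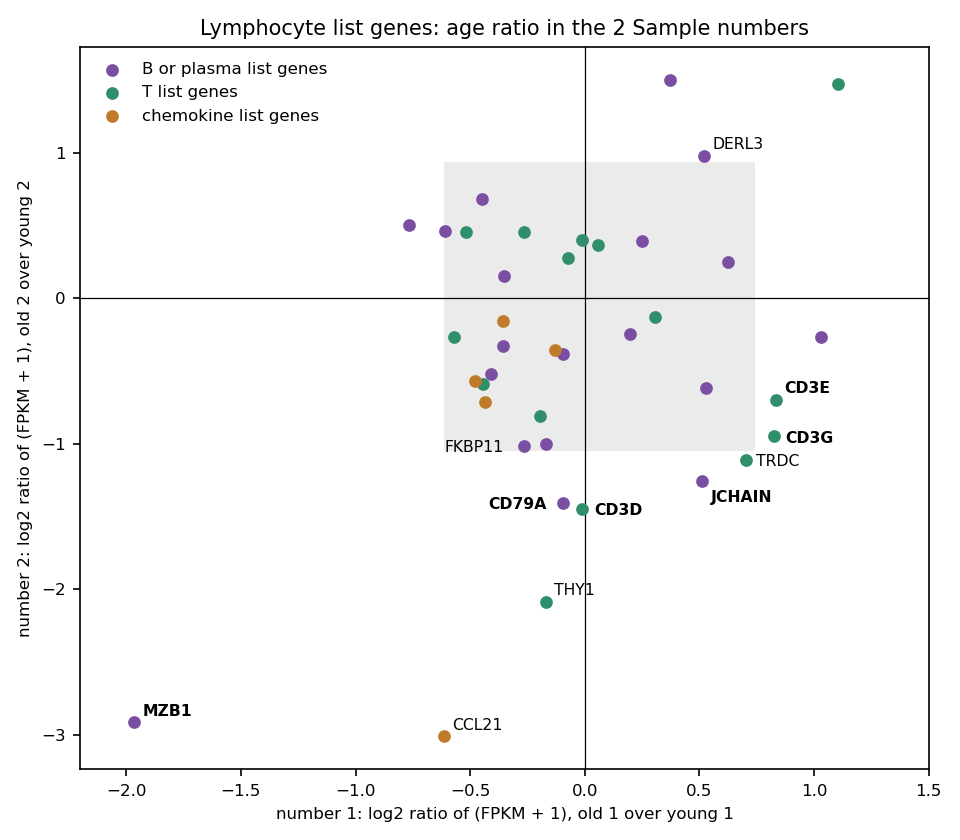
Log2 ratio of (FPKM + 1), old over young, in Sample number 1 (horizontal axis) and number 2 (vertical axis) for the tested genes of the B and plasma cell, T cell and chemokine lists, with members in bold and some other genes named. The grey box spans the middle 90% of all tested loci on each axis. MZB1 lies farthest to the left of the plotted genes, at -1.97 and -2.91, and CD3E, CD3G, TRDC and JCHAIN lie together at the lower right.

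Of 18 chemokine and receptor genes of lymphocyte attraction, 15 were found and 5 tested. The 5 tested were lower at the old age in both numbers, where 23.1% of all loci were, with median log2 ratios of -0.44 and -0.57, and 0 passed limma. Of the 10 below the filter, CCR7, CCL28 and CXCL9 were higher in both numbers, and CCR10, CCR4 and CXCL10 were lower in both. CCL21, made by lymphatic vessels and by lymph node stroma to draw in T cells and dendritic cells, stood at 17.8 FPKM in old 1 and 22.0 FPKM in old 2, against 27.8 FPKM in young 1 and 185 FPKM in young 2. Young 2 was far above the others, as it was for MZB1, CD79A and CD3D. CXCL12, which holds plasma cells and other CXCR4-bearing cells in place, stood at 14.1 FPKM in old 1 and 9.52 FPKM in old 2, against 19.5 FPKM in young 1 and 16.2 FPKM in young 2. The part of lymphatic or lymph node tissue in the level of young 2 was not tested. CXCL13 and CCL19, chemokines of lymphoid follicles and T cell zones, did not exceed 0.515 FPKM in any library.

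**Figure D5:**
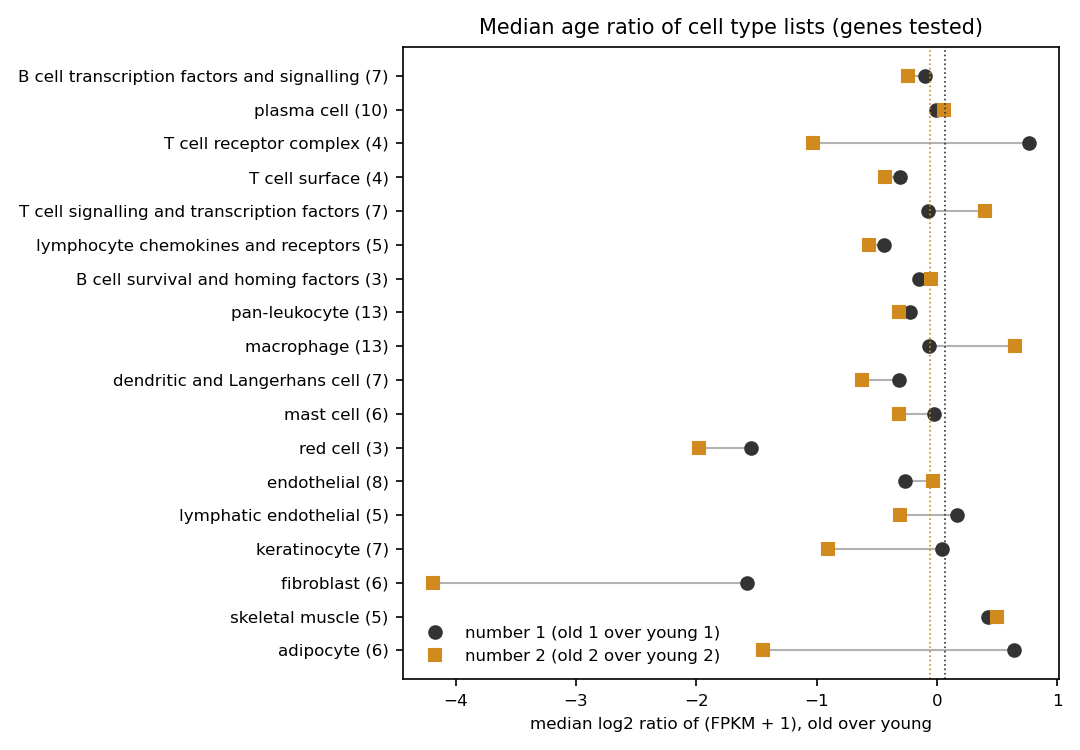
Median log2 ratio of (FPKM + 1), old over young, of each list with at least 3 tested genes (their number in parentheses), circles for Sample number 1 and squares for number 2. Dotted lines give the medians of all tested loci, 0.07 and -0.06. The T cell receptor list lies at 0.77 in number 1 and -1.03 in number 2, and the adipocyte list likewise lies on opposite sides.

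Lists of other cells that full-thickness skin can hold are given for reference. Of the red cell genes tested, 3 of 3 were lower at the old age in both numbers (medians -1.55 and -1.97), where 23.1% of all loci were. HBA2 stood at 25.9 FPKM in old 1 and 150 FPKM in old 2, against 258 FPKM in young 1 and 750 FPKM in young 2. Of the fibroblast genes, 6 of 6 had lower values in both numbers (medians -1.58 and -4.19), against the same 23.1% of loci, but unequally. In number 1 the collagen genes COL1A1, COL1A2 and COL3A1 had log2 ratios of -3.40, -3.09 and -3.61, while PDGFRA, LUM and DCN lay at -0.06, -0.01 and -0.05. The red cell and collagen genes had the direction of MZB1, and their part in the MZB1 result was not tested. Macrophage genes had medians of -0.06 and 0.65 over 13 genes. Keratinocyte genes had medians of 0.04 and -0.91 over 7, endothelial genes -0.26 and -0.03 over 8, lymphatic endothelial genes 0.17 and -0.31 over 5, mast cell genes -0.02 and -0.31 over 6, and skeletal muscle genes 0.42 and 0.50 over 5. Of 12 cytotoxic lymphocyte genes 6 were found and 1 was tested, NKG7, in a locus joined with ETFB. B cell survival factors had medians of -0.15 and -0.05 over 3 tested genes, and PIGR, the transporter of antibody that holds JCHAIN, was listed at 0.116 FPKM in old 1 and at the floor in old 2, young 1 and young 2.

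The loci whose profile over the 4 libraries was most like that of the members belonged to none of the lists. For the mean profile of CD79A, JCHAIN and MZB1 the nearest was COL6A2, a chain of collagen VI, with a root-mean-square difference of 0.07 on the log2 scale. It stood at 47.7 FPKM in old 1 and 53.9 FPKM in old 2, against 71.8 FPKM in young 1 and 221 FPKM in young 2. RTN4R, MOGAT2, CKB and FKBP10 followed, at 0.11 to 0.14. For the mean profile of CD3D, CD3E and CD3G the nearest were RFC4, a subunit of the replication clamp loader, and OSR2, a zinc finger transcription factor, at 0.04 each. RFC4 stood at 3.04 FPKM in old 1 and 1.98 FPKM in old 2, against 1.93 FPKM in young 1 and 4.97 FPKM in young 2. With 4 libraries as points, these are given as a description.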

How the data were processed

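Per the labels' protocols, total RNA with an integrity number above 7.5 was depleted of ribosomal RNA (Ribo-Zero Gold) and sequenced in paired reads of 150 bases on an Illumina HiSeq instrument. Tools named in the submitters' processing notes are TopHat2, Bowtie2, FastQC and cutadapt. Genome build, annotation and quantification tool were not given in the sources used here. FPKM is the unit the authors deposited, each table scaled to its own library, so levels across libraries depend on composition. Low FPKM values showed no common step, depth is unknown, and no interval or count test is given. Identical values above the floor between libraries numbered 0.

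Members were matched by the tables' gene names. For 8 of 9, all but CD79A, an NCBI gene number was found in the RefSeq gene table of H.glaber_assembly_v1.0. The RefSeq table also named 1413 loci without a symbol. Loci whose mean reached 1 FPKM entered limma 3.58.1 (R 4.3.3), run on log2(FPKM + 1) with age alone in the model, a trend of variance on mean, two-sided p-values and a Benjamini-Hochberg threshold of 0.05. In simulated data, each locus had a mean level above those of the tested members, and the changes put in were larger than theirs. On these data both fits returned the size and sign of the changes, but the fit on age alone called none. The fit with the Sample number called them with noise drawn from moderated variances, with more false calls than its threshold allows, and called none with noise from each locus's own variance. Lists, 22 in all with 224 symbols, are described by counts and medians.

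Members and lists were chosen with earlier results of these data known. The rule named all members, and of each list the 3 genes of highest mean and the 2 of largest mean ratio with the same sign in both numbers. PTPRC, PAX5, TNFRSF17, CR2, FCRL1, IL2RB, CXCL13, CCL19, CCR7, CCL28, CXCL9, PDGFRA, LUM, DCN, XCR1 and CLEC9A are named beyond that rule, a choice made with their values in view. The same holds for CCR10, CCR4, CXCL10, CCR2, BATF3 and ZBTB46. Some genes of the lists are not reported here by name. Tables and plots were made with matplotlib 3.10.9, numpy 2.4.6 and pandas 2.3.3 under Python 3.11.15.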

Additional observations from a re-analysis of the deposited data

How the results depend on the processing

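Other settings were scaling by median of ratios, a pseudocount of 0.1, no low-value filter or one at a mean of 5 FPKM, leaving out small structural RNA and mitochondrial loci, no trend, robust moderation, the Sample number as a replicate block, and each library left out. Summing loci per symbol was not run, since every listed symbol found had 1 locus. MZB1 stayed lower in old skin under all 12 (log2 difference -3.66 to -1.22, limma adjusted p 0.0493 to 1). The counts of genes called higher and lower were 1 and 2 with the replicate block. With libraries left out in turn, they ran from 0 to 24 (without young 1) and from 0 to 32 (without old 1), and members past the threshold from 0 to 1, MZB1 without young 1. The block gave MZB1 adjusted p = 0.0786. The difference between the numbers correlated at 0.823 across loci between the ages, but the labels do not pair the libraries. Directions of the other tested members changed with libraries left out: CD3D ran from -1.64 to 0.18, CD3E from -0.39 to 0.52, CD3G from -0.74 to 0.62, CD79A from -1.73 to 0.23 and JCHAIN from -0.98 to 0.24. CD3G was at 0.033 without the small structural RNA and mitochondrial loci. The causes were not tested. Counts of genes lower in both numbers changed under median-of-ratios scaling for the B cell survival, endothelial, keratinocyte, macrophage, mast cell and shared leukocyte lists. They also changed for these lists, and for the chemokine list, without the small structural RNA and mitochondrial loci. The chemokine count was then 4 in place of 5. The shared leukocyte count was 6 under the scaling and 5 without those loci, in place of 7. With a pseudocount of 0.1, members at least 2-fold lower in number 2 numbered 6 in place of 4, CD3E and CD3G included. Depth is unknown, so values near the floor carry no stated error.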

Other observations

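Genes of dendritic cells, which present antigen to T cells, are given here as values. CD207 (langerin), which marks Langerhans cells of the epidermis, stood at 6.29 FPKM in old 1 and 5.71 FPKM in old 2, against 12.4 FPKM in young 1 and 20.0 FPKM in young 2. FLT3, a growth factor receptor of dendritic cells, stood at 0.925 FPKM in old 1 and 0.798 FPKM in old 2, against 1.64 FPKM in young 1 and 2.94 FPKM in young 2. For both genes the old libraries lay below the young ones, as for 6.46% of all loci, and neither passed limma (adjusted p = 1). XCR1 and CLEC9A, markers of cross-presenting dendritic cells, were at the floor in both old libraries and at 0.367 and 0.272 FPKM in young 1 and 0.988 and 0.0805 FPKM in young 2. Of the other tested genes of the list, CCR2 was also lower in both numbers, with overlapping ages. ITGAX, EPCAM and BATF3 had opposite directions in the numbers, and ZBTB46 was higher in both. EPCAM, which is also epithelial, stood at 8.42 FPKM in old 1 and 18.7 FPKM in old 2, against 8.51 FPKM in young 1 and 17.0 FPKM in young 2. ITGAX (CD11c) stood at 1.13 FPKM in old 1 and 7.07 FPKM in old 2, against 4.74 FPKM in young 1 and 4.08 FPKM in young 2. Over the 7 tested genes of the list, the medians were -0.32 and -0.62. Of the 7, 3 were lower and 1 was higher in old skin in both numbers, beside 23.1% and 26.7% of all loci. Of 7 neutrophil genes 2 were tested, S100A8 and S100A9, and both were higher in old skin in both numbers, where 26.7% of all loci were. S100A8, a calcium-binding protein of neutrophils and stressed epidermis, stood at 10.4 FPKM in old 1 and 34.7 FPKM in old 2, against 2.56 FPKM in young 1 and 18.5 FPKM in young 2, with overlapping ages.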
